A study of Mus musculus with 10 samples.

Results

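Expression of 10 genes that mark vascular endothelium, Vwf, Robo4, Eng, Cldn5, Pecam1, Cdh5, Tek, Tie1, Kdr and Flt1, was followed in the mouse optic nerve head after a brief rise in eye pressure. Their probe sets were found by exact gene symbol in the platform annotation. All 10 genes were measured, by 14 probe sets, among 12393 genes and 20380 probe sets with 1 gene symbol. The tissue came from male C57Bl/6 mice, 6 to 8 weeks old. In the high IOP group, the right eye was held at an intraocular pressure of 30 mmHg for 1 h by cannulating its front chamber, and the nerve head was taken 3 days later. In the control group, the nerve head came from the contralateral left eye, which was not operated on. Each array carried RNA from 2 pooled nerve heads, with 5 arrays in each group from 10 mice, so cannulation and the side of the body went with the pressure and cannot be told apart from it. The array signal is linear and has no unit, and precision is limited by how many arrays there were.

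Endothelial cells line blood vessels and, in neural tissue, form a barrier between the tissue and the blood. Their identity rests on surface receptors for growth factors (Kdr, Flt1, Tek, Tie1), on adhesion molecules that join neighbouring cells (Cdh5, Pecam1, Cldn5), on modulators of guidance and TGF-beta family signals (Robo4, Eng) and on the stored clotting protein von Willebrand factor (Vwf). In the mouse optic nerve head the lamina is made mainly of astrocytes, and capillaries run among the bundles of ganglion cell axons. Several of the genes are not restricted to endothelium: megakaryocytes make Vwf, platelets and leukocytes carry Pecam1, and monocytes express Flt1. In bulk tissue a lower signal of such a gene can reflect fewer endothelial cells or less RNA per cell, which cannot be told apart.

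No endothelial gene passed the test of high IOP against control after adjustment over all genes. Vwf, Robo4, Eng, Tie1 and Cldn5 had higher mean signals in high IOP tissue, Tek a slightly higher one, and Kdr, Pecam1, Cdh5 and Flt1 lower ones. The log2 fold changes of the 10 genes, high IOP minus control on the scale log2(signal + 16), ran from -0.26 to 0.49 with a median of 0.15, beside a median of -0.01 over all 12393 genes. By limma's moderated test, 0 of the 10 genes had an adjusted p under 0.05. The background was 0 of all genes and of all probe sets (0%), with a lowest adjusted p of 0.849, and 492 genes (3.97%) at an unadjusted p under 0.05. The adjusted p of the 10 genes lay between 0.849 and 0.965. At an unadjusted p under 0.05 and higher in high IOP there were 3 of the 10, Vwf, Robo4 and Eng, beside 2.65% of all genes. With 6 of 10 log2 fold changes above 0, against 47.3% of all genes, the direction was mixed within the set. The 95% interval of 9 genes lay within 2-fold in both directions, that of Cdh5 being the exception. In none of the 10 did the groups separate completely with high IOP above control, as they did in 0.403% of all genes.

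**Figure D1:**
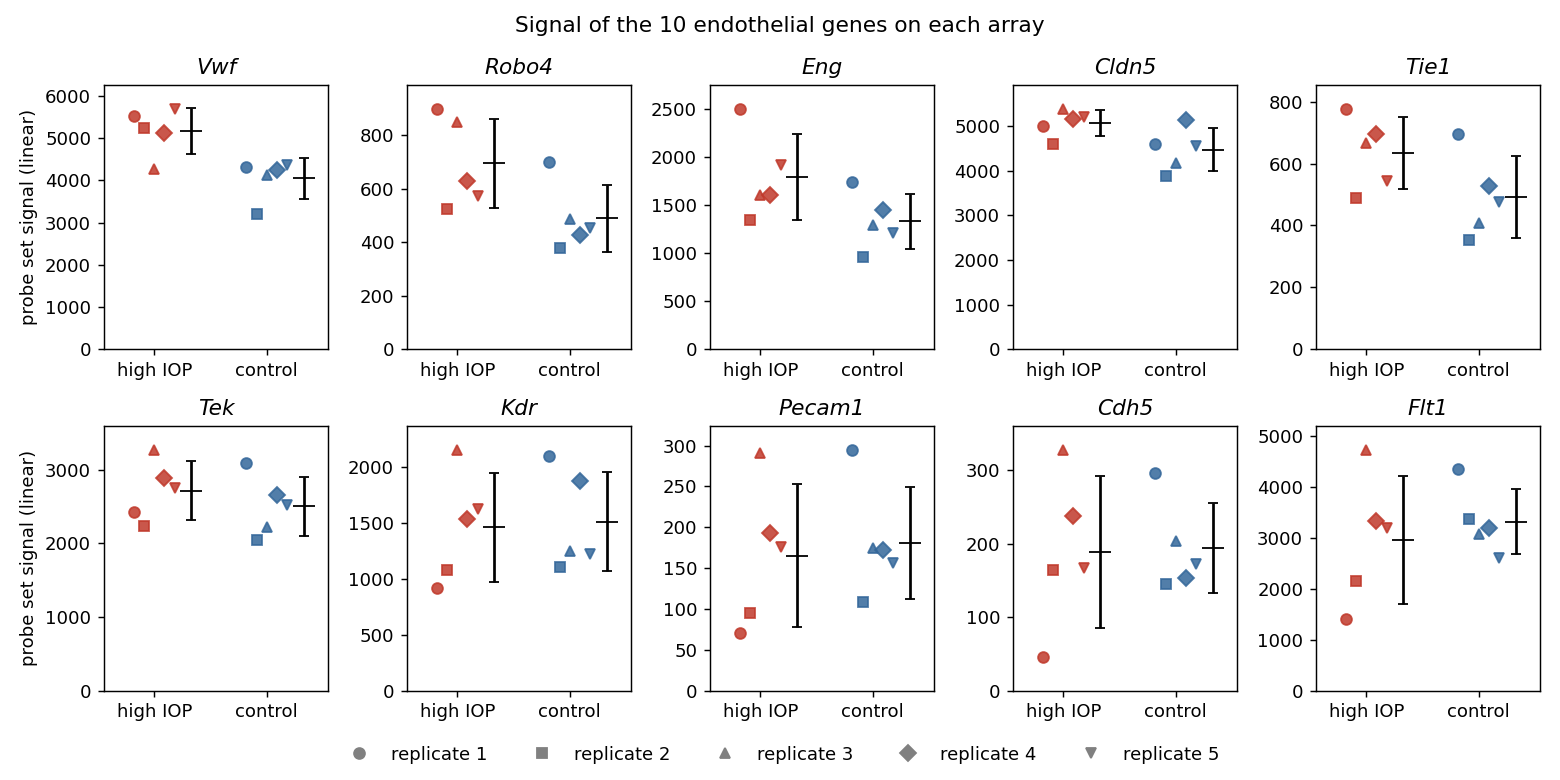
Linear probe set signal of each endothelial gene on each array, with high IOP at the left and control at the right of each panel; marker shapes give the replicate number and bars the mean ± SD (n = 5). The signals of Vwf in high IOP lie mostly above those in control, whereas Pecam1, Cdh5, Kdr and Flt1 spread over the whole range in high IOP, with replicate 1 lowest.

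Vwf encodes von Willebrand factor, which is stored in endothelial granules and tethers platelets to injured vessel walls. Its signal was 5528, 5250, 4271, 5113 and 5688 in high IOP replicates 1 to 5, against 4310, 3198, 4120, 4240 and 4355 in control replicates 1 to 5. Of the high IOP arrays 4 lay above the highest control array, and replicate 3 was the one inside the control range. The mean signal was 5170 ± 551 in high IOP and 4045 ± 482 in control (SD, n = 5 each), a 1.28-fold difference with a 95% interval from 1.08 to 1.52. Its log2 fold change of 0.36 had a standard error of 0.112 (limma unadjusted p = 0.00905, adjusted p = 0.849). Control replicate 2 stood well below the other 4 control arrays, and without it the log2 fold change was 0.27. Vwf alone among the 10 kept an unadjusted p under 0.05 in each of the 10 fits that left out 1 array.

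Robo4, a roundabout receptor found mainly on endothelium and known for stabilising vessels, also had a higher mean signal in high IOP. Its signal was 897, 525, 846, 628 and 571 in high IOP replicates 1 to 5, against 700, 378, 487, 427 and 452 in control replicates 1 to 5. High IOP replicates 1 and 3 lay above every control array, and control replicate 1 lay inside the high IOP range. The means were 694 ± 168 in high IOP and 489 ± 125 in control (SD, n = 5 each), and the log2 fold change of 0.49 had an interval from 0.07 to 0.91 (limma unadjusted p = 0.0258, adjusted p = 0.849). With 1 array left out it ran from 0.39 (without high IOP replicate 1) to 0.62 (without control replicate 1).

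Eng encodes endoglin, a co-receptor for TGF-beta family ligands that is lost in an inherited disease of vessel malformation. Its signal was 2501, 1344, 1603, 1601 and 1913 in high IOP replicates 1 to 5, against 1742, 964, 1297, 1446 and 1209 in control replicates 1 to 5. All 5 high IOP arrays lay above the control median of 1297, but only replicates 1 and 5 above the highest control array. The means were 1792 ± 444 in high IOP and 1331 ± 289 in control (SD, n = 5 each). The log2 fold change was 0.42 with an interval from 0.01 to 0.83 (limma unadjusted p = 0.0466, adjusted p = 0.849), and the dimmer second probe set gave 0.43. These probe sets tracked each other over the 10 arrays with a Pearson r of 0.935.

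The junction gene Cldn5, which encodes the claudin that seals the tight junctions of neural vessels, was the least variable of the 10, spanning 1.38-fold over all arrays. Its signal was 5002, 4592, 5377, 5150 and 5200 in high IOP replicates 1 to 5, against 4589, 3883, 4179, 5139 and 4560 in control replicates 1 to 5. All high IOP arrays lay above the control median, and control replicate 4 was level with them. The log2 fold change was 0.18 with an interval from -0.01 to 0.38 (limma adjusted p = 0.849).

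The other junction genes, Cdh5 and Pecam1, had wide intervals. Cdh5 encodes VE-cadherin, the adherens junction protein of endothelium, and its signal was 46.2, 164, 327, 237 and 166 in high IOP replicates 1 to 5, against 297, 145, 203, 153 and 173 in control replicates 1 to 5. Pecam1 encodes the adhesion molecule CD31, and its signal was 70.3, 95.2, 291, 193 and 175 in high IOP replicates 1 to 5, against 294, 109, 175, 172 and 156 in control replicates 1 to 5. For both genes high IOP replicate 1 was the lowest of the 10 arrays, while high IOP replicate 3 and control replicate 1 were the highest. No detection calls were used, so whether the lowest of these signals lay above background is not known. The log2 fold change was -0.20 for each, with an interval from -1.06 to 0.67 for Cdh5 and from -0.96 to 0.55 for Pecam1. Without high IOP replicate 1 the values were 0.18 for Cdh5 and 0.03 for Pecam1, and without high IOP replicate 3 they were -0.43 for both. A second Cdh5 probe set was dim, at 50.2 ± 7.46 in high IOP and 55.3 ± 8.81 in control (SD, n = 5 each), with a log2 fold change of -0.10. It did not follow the first across arrays (r = 0.211 over 10 arrays and -0.195 without high IOP replicate 1).

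Tek and Tie1 encode the angiopoietin receptor TIE2 and its partner TIE1, which hold mature vessels quiescent. Tek had a signal of 2421, 2234, 3262, 2883 and 2754 in high IOP replicates 1 to 5, against 3083, 2051, 2214, 2648 and 2516 in control replicates 1 to 5, a log2 fold change of 0.12 (interval -0.18 to 0.41). The groups overlapped over most of their range, and leaving out 1 array moved the value between 0.05 (without high IOP replicate 3) and 0.20 (without control replicate 1). Tie1 had a signal of 776, 489, 668, 694 and 543 in high IOP replicates 1 to 5, against 696, 353, 408, 527 and 475 in control replicates 1 to 5. All high IOP arrays lay above the control median of 475, yet only replicate 1 lay above control replicate 1. Its log2 fold change was 0.37 with an interval from -0.03 to 0.78 (limma adjusted p = 0.849), from 0.27 without control replicate 2 to 0.51 without control replicate 1.

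Kdr and Flt1 encode receptors of vascular endothelial growth factor (VEGF), the main signalling receptor for VEGF-A and a receptor that binds it tightly with little signalling of its own. Kdr had a signal of 913, 1078, 2146, 1533 and 1623 in high IOP replicates 1 to 5, against 2092, 1106, 1251, 1869 and 1223 in control replicates 1 to 5. The groups overlapped almost fully, with a log2 fold change of -0.07 (interval -0.62 to 0.49) that was 0.09 without high IOP replicate 1 and -0.22 without high IOP replicate 3. Flt1 was measured by 3 probe sets, which did not give the same picture. Its brightest had a signal of 1400, 2146, 4713, 3332 and 3185 in high IOP replicates 1 to 5, against 4346, 3356, 3071, 3193 and 2607 in control replicates 1 to 5, and its log2 fold change was -0.26 (interval -0.88 to 0.36). The second stood at 2088 ± 403 in high IOP and 1856 ± 374 in control (SD, n = 5 each), with a log2 fold change of 0.17, and the third, dimmer one at 165 ± 24.4 in high IOP and 162 ± 43.3 in control (SD, n = 5 each), with 0.05. The correlation between the Flt1 probe sets over the 10 arrays was between 0.115 and 0.474, and averaged over all 3 the log2 fold change of the gene was -0.01. Without high IOP replicate 1 the brightest probe set stood at -0.02, and without high IOP replicate 3 at -0.46. The files do not say which transcript forms each probe set detects.

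**Figure D2:**
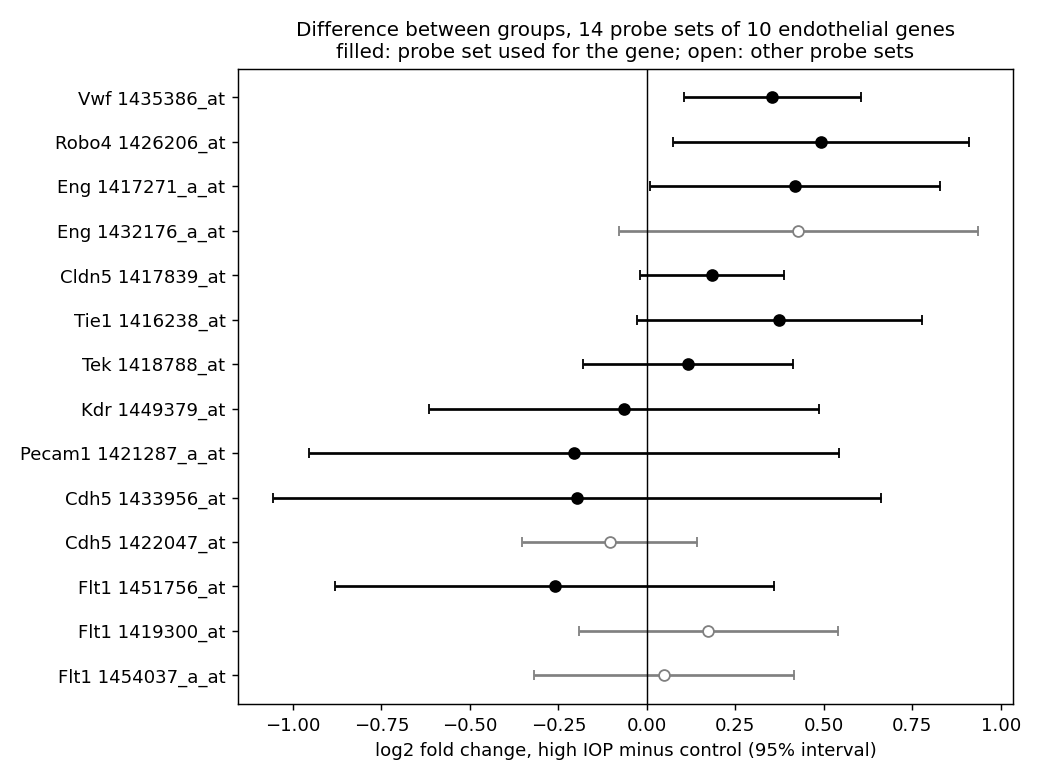
Log2 fold change, high IOP minus control, with 95% intervals for the 14 probe sets of the 10 endothelial genes, from the limma fit over all probe sets; filled points are the probe set used for the gene and open points its other probe sets. The intervals of Vwf, Robo4 and the brighter Eng probe set leave out 0, and the Flt1 probe sets lie on both sides of it.

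The mean deviation of the 10 genes from their gene means ran from -0.39 on control replicate 2 to 0.42 on high IOP replicate 3, on the log2 scale. On high IOP replicate 1, where that mean was -0.22, the genes split: Robo4, Eng and Tie1 had their highest signal of the 10 arrays there, and Kdr, Pecam1, Cdh5 and Flt1 their lowest. Among the Flt1 probe sets this held for the brightest only. The others read 1785 and 156 on high IOP replicate 1, against 1309 and 113 on control replicate 2, their lowest array. For Cdh5 too it held for the brighter probe set only. The dim one read 44.3 on high IOP replicate 1, against 42.2 on high IOP replicate 3 and 43.1 on control replicate 5. Deviations from the gene means on high IOP replicate 1 ran from -1.61 for Cdh5 to 0.72 for Eng on the log2 scale, with an SD over the 10 genes of 0.816. On the other 9 arrays that SD lay between 0.107 and 0.315. This array also stood apart over all genes, correlating with the other 9 at a mean r of 0.974, where each of those averaged 0.986 to 0.989. Its Gapdh control signal was 2.07 times as high at the 3' end as at the 5' end, a sign of RNA length, against 1.53 to 1.73 times on the others, and for actin the ratio was 2.10 against 1.65 to 2.13, and the part of these differences in the split was not tested. Several other arrays had most of the genes on one side of their means. High IOP replicate 3 was the highest array for 5 of the 10 genes and above the gene mean for 9, high IOP replicate 4 was above the mean for all 10, control replicate 5 was below the mean for all 10, and control replicate 2 was the lowest array for 6, namely Vwf, Robo4, Eng, Cldn5, Tie1 and Tek.

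**Figure D3:**
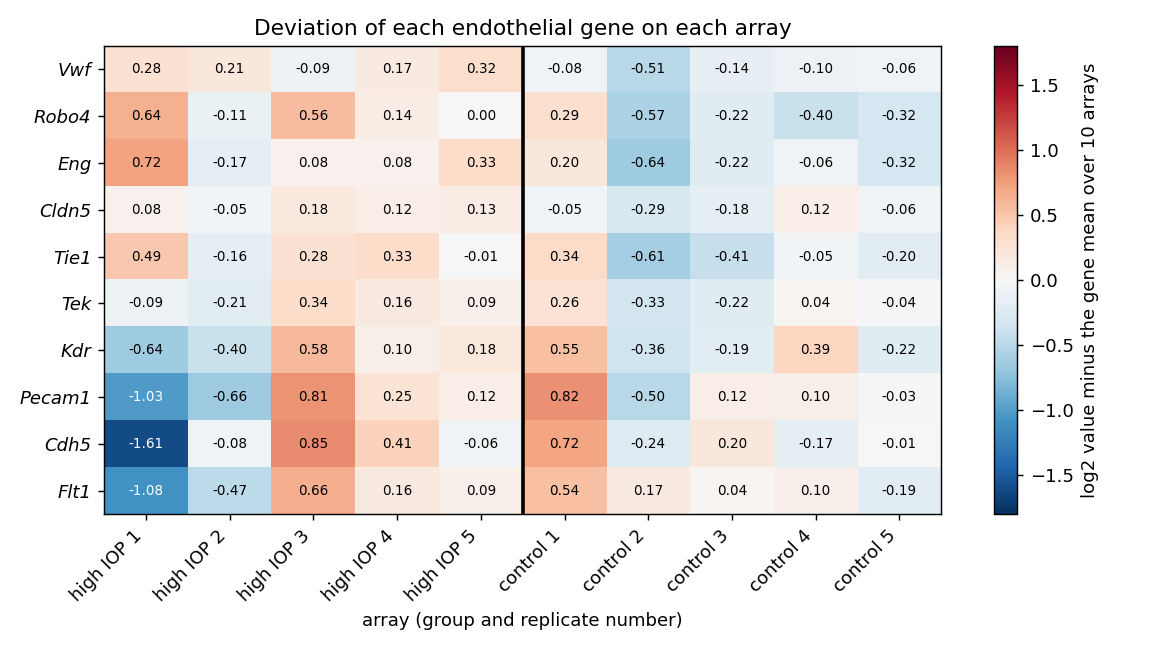
Log2 value of each endothelial gene on each array minus the mean of that gene over the 10 arrays; rows are genes and columns arrays, high IOP left of the line and control right of it. High IOP replicate 1 runs from 0.72 for Eng to -1.61 for Cdh5, and control replicate 2 is low in 9 of 10 rows.

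Over the 10 arrays, 34 of the 45 pairs of endothelial genes had a Pearson r above 0 and 23 an r above 0.5, with a median of 0.539. The median over all pairs of the 9234 genes with a mean signal of at least 100 was 0.030, and 16% of those pairs were above 0.5. All arrays share the platform, and the control pools came from the other eyes of the mice in the high IOP pools, so these values are descriptions of 10 points without a test. The highest values were 0.924 for Pecam1 with Kdr, 0.902 for Cdh5 with Flt1 and 0.897 for Pecam1 with Flt1, and the lowest was -0.479 for Vwf with Flt1. Without high IOP replicate 1, an alternative chosen after seeing the data, 44 of 45 pairs were above 0 and 36 above 0.5, with a median of 0.737. The background over all gene pairs was computed on 10 arrays only, so these counts have no background to be set against. On those 9 arrays Tek and Tie1 had an r of 0.936, against 0.739 on all 10, and Robo4 and Cdh5 one of 0.908, against -0.049 on all 10. Vwf with Flt1 was then the one pair below 0, at -0.298.

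**Figure D4:**
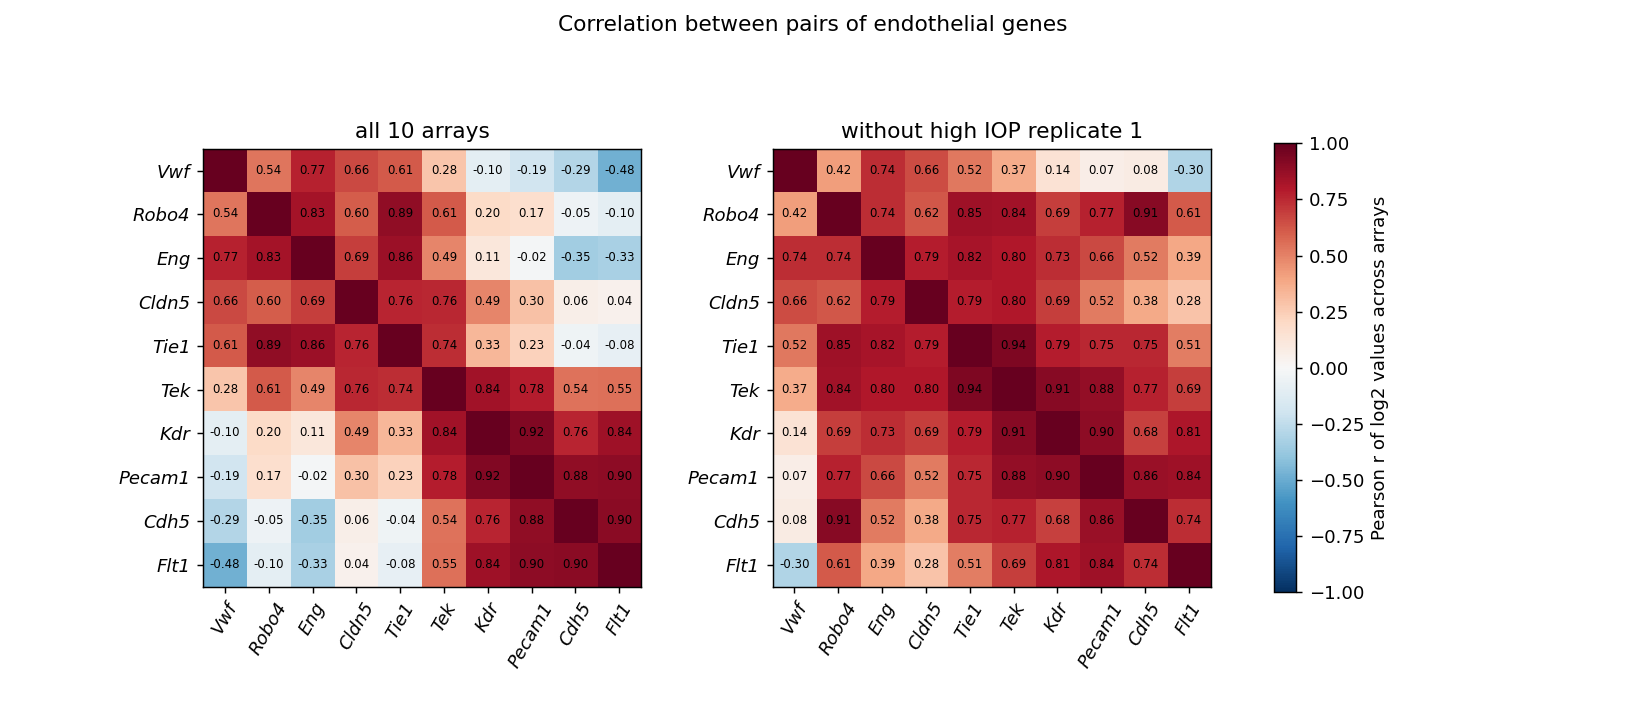
Pearson r between pairs of endothelial genes over all 10 arrays (left) and over the 9 arrays without high IOP replicate 1 (right). Without that array 44 of 45 pairs are above 0, and Vwf has the lowest values. No background of other genes was computed for the 9 arrays.

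Set against the mean of the other 9 genes on the same array, Robo4 averaged 0.21 ± 0.44 in high IOP and -0.21 ± 0.14 in control (log2 deviation, SD, n = 5 each), a difference of 0.41, and Flt1 averaged -0.21 ± 0.46 in high IOP and 0.21 ± 0.25 in control, a difference of -0.42. Eng (0.33), Tie1 (0.28) and Vwf (0.26) lay on the side of Robo4, and Pecam1 (-0.36), Cdh5 (-0.35) and Kdr (-0.21) on that of Flt1. Cldn5 (0.07) and Tek (-0.01) lay near 0, Tek with an SD of 0.09 in high IOP and 0.11 in control (n = 5 each). In every one of the 10 genes the 2 groups overlapped on this relative scale. These averages include high IOP replicate 1, the array on which the genes split, and were not computed without it. The SD was larger in high IOP than in control for every gene but Cldn5 and Tek. For Eng it was 0.54 in high IOP and 0.08 in control, and for Cdh5 0.80 in high IOP and 0.23 in control. The differences therefore cannot be read apart from that array.

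Promoters are shown for genes highest on high IOP replicate 1 (Robo4, Eng, Tie1) and for genes lowest there (Kdr, Flt1). This grouping rests on that array alone, which stood apart over all genes, with a mean r of 0.974 with the other arrays. Flt1 was lowest there by its brightest probe set only. A grouping from a single array cannot show shared regulation, and a part of promoter sequence in the split was not tested. The RefSeq promoter table of GRCm38.p6 held 7 of the 10 genes, with 250 bases before and 50 after a transcript start. Vwf, Pecam1 and Cdh5 had no window, although Pecam1 and, by its brighter probe set, Cdh5 were also lowest on high IOP replicate 1. The 250 bases before the start are shown, and capitals mark AGGAAG or its reverse complement CTTCCT, a core of sites for ETS factors, the transcription factor family that drives many endothelial genes.
Robo4, chr9:37401722-37401971, plus strand: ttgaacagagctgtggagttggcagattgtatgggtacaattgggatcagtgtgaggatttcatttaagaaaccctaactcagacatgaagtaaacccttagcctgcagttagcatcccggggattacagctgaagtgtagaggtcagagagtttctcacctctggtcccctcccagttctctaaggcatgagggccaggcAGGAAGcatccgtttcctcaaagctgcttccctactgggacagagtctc
Eng, chr2:32646345-32646594, plus strand: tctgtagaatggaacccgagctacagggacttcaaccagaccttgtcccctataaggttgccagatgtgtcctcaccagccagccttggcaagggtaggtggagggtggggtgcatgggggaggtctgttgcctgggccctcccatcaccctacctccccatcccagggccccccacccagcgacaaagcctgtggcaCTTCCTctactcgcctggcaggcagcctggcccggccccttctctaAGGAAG
Tie1, chr4:118489850-118490099, minus strand: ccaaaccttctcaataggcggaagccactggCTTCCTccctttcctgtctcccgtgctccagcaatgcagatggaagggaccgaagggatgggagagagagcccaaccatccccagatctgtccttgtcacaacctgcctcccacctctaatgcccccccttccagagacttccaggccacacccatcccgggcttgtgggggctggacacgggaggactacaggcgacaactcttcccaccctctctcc
Kdr, chr5:75978456-75978705, minus strand: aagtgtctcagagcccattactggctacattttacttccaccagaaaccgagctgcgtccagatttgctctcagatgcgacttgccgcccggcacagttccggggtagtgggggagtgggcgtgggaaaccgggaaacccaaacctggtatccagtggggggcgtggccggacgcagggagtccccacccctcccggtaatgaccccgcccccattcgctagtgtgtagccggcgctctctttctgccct
Flt1, chr5:147726012-147726261, minus strand: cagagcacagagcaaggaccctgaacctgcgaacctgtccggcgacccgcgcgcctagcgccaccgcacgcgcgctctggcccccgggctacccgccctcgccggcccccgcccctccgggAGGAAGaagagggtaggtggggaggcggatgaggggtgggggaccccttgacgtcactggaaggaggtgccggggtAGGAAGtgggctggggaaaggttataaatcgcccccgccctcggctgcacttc

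In the 300-base windows, AGGAAG on either strand occurred in 4 of the 7 genes, once in Robo4 and in 2 places each in Eng, Tie1 and Flt1, beside 35.4% of 32851 promoters. Robo4, Eng and Tie1 therefore held it, as did Flt1, and Kdr, Cldn5 and Tek did not. Only this exact sequence was counted, so other forms of ETS sites were not looked for. The GATA factor motif AGATAA on either strand was found, among the 7, only in Tek (11.2% of all promoters), and the TATA box TATAAA on either strand only in Flt1 (13.6%), and each motif was counted on its own with no overlap removed. CG dinucleotides were more frequent in Flt1 (29 in the window) and Kdr (19) than in Cldn5 (12), Tie1 (7), Eng (6), Tek (3) and Robo4 (2), with a median of 7 over all promoters. These counts describe the letters and do not show that a factor binds. A relation between the counts and the array signals was not tested.

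Ligands and partners of the receptors were read from lists of 8 to 15 genes, and no member of them passed the test over all genes. Of 8 measured genes of the angiopoietin pathway 6 were higher in high IOP, with a median log2 fold change of 0.10. Angpt2, the TIE2 ligand released from the same endothelial granules as von Willebrand factor, had a signal of 800, 873, 926, 710 and 876 in high IOP replicates 1 to 5, against 720, 549, 574, 686 and 889 in control replicates 1 to 5. High IOP replicate 3 lay above every control array and high IOP replicates 1, 2 and 5 above all but control replicate 5, and the log2 fold change was 0.30 (standard error 0.133, limma unadjusted p = 0.0451, adjusted p = 0.849). Angpt4, a further TIE2 ligand and a dim gene, stood at 57.6 ± 6.96 in high IOP and 48.3 ± 3.57 in control (SD, n = 5 each), and Ptprb, the phosphatase that restrains TIE2, had a log2 fold change of 0.21. Of 10 measured VEGF pathway genes 7 were higher (median 0.02). Sh2d2a, an adaptor that binds KDR, was dim at 46.9 ± 11.3 in high IOP and 29.7 ± 10.9 in control (SD, n = 5 each; log2 fold change 0.48), while the ligand genes Vegfa and Vegfd stood at -0.31 and 0.20, with another Vegfa probe set at 0.04. Of 9 Slit and Robo pathway genes 3 were higher (median -0.03), with Slit1 at 0.14, Robo1 at -0.17 and Arhgap1 at -0.08. Slit1 was among the dimmest of all genes, at percentile 0.3 of mean signal. It read 3.18 ± 2.19 in high IOP and 1.31 ± 0.69 in control (SD, n = 5 each), so its value does not show expression. Of 15 genes around endoglin 6 were higher (median -0.04), with the signal inhibitor Smad7 at -0.75 (standard error 0.461), the signal transducer Smad9 at -0.21 and the co-receptor Tgfbr3 at -0.32. On high IOP replicate 1 Smad7 had a signal of 258, against 1243 to 2305 on the other high IOP arrays and 1394 to 2121 in control. Tgfbr3 was also lowest on that array, at 35.9, whereas Smad9, at 49.3, was not.

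Of 14 measured junction partners 4 were higher (median -0.07), with the tricellular junction receptor Lsr at 0.32, p120-catenin Ctnnd1, which stabilises VE-cadherin, at -0.53, and plakoglobin Jup at -0.37. Their score on high IOP replicate 1, the mean log2 deviation over the list, was -0.57, and on the other 9 arrays it lay between -0.04 and 0.27. Of 7 measured genes of Vwf storage and platelet binding 6 were higher (median 0.22). F8, the clotting factor carried by von Willebrand factor and made by endothelium, had a signal of 131, 104, 102, 104 and 136 in high IOP replicates 1 to 5, against 84.7, 89.8, 92.7, 90.9 and 89.0 in control replicates 1 to 5. The groups of this dim gene did not overlap, with high IOP above control, as was so for 0.403% of all genes. The log2 fold change of F8 was 0.31 (standard error 0.0919, limma unadjusted p = 0.00642, adjusted p = 0.849). The platelet genes Gp9 and Itga2b stood at -0.38 and 0.22.

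Of 34 other endothelial markers 19 were higher in high IOP (median 0.02), and 3 (8.82%) had an unadjusted p under 0.05 in that direction, beside 2.65% of all genes. Aplnr, the apelin receptor of vein and tip cell endothelium, had a signal of 1045, 1386, 1774, 1723 and 1471 in high IOP replicates 1 to 5, against 775, 812, 659, 839 and 1394 in control replicates 1 to 5. Control replicate 5 lay among the high IOP arrays and the other 4 control arrays below them, for a log2 fold change of 0.74 (standard error 0.202, limma adjusted p = 0.849), and its dimmer probe set gave 0.13. Nos3, the endothelial nitric oxide synthase, stood at 376 ± 36.9 in high IOP and 282 ± 36.8 in control (SD, n = 5 each). Its log2 fold change was 0.40 (standard error 0.105, limma unadjusted p = 0.00305, adjusted p = 0.849). It was the 1 gene of the 34 whose groups did not overlap, with high IOP above control, as was so for 0.403% of all genes. Kank3 stood at 490 ± 50.4 in high IOP and 395 ± 69.0 in control (SD, n = 5 each). Of 22 endothelial transcription factors 9 were higher (median -0.04), with Lyl1, Lef1 and Tal1 at 0.22, 0.28 and 0.25. Of 19 genes of barrier transport and caveolae 7 were higher (median -0.05). Among them Ndp, the glial ligand norrin that maintains the neural vessel barrier, stood at 711 ± 114 in high IOP and 912 ± 143 in control (SD, n = 5 each), a log2 fold change of -0.35. Its receptor Fzd4 stood at 0.41 and the amino acid transporter Slc38a5 at 0.37. Of 9 leukocyte adhesion genes 5 were higher (median 0.00), with Glycam1, Madcam1 and Vcam1 at -0.50, 0.09 and -0.15.

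Genes whose log2 values followed the endothelial set most closely over the 10 arrays were taken by Pearson r with the mean deviation of the 10 genes. They were Tlnrd1 (0.945), the endothelial adhesion gene Icam2 (0.940), Thsd1 (0.931), Hs3st3a1 (0.928), Tiam1 (0.926) and Chst1 (0.924), among 9224 candidates. For single genes the closest were Kank3 for Robo4 (0.924), Stab1 for Eng (0.978), Ctla2a for Cldn5 (0.936), Ccrl2 for Tie1 (0.923), Mpp3 for Tek (0.940) and Sco2 for Vwf (0.909). For the 4 genes lowest on high IOP replicate 1 they were Cd302 for Kdr (0.957), Enpep for Pecam1 (0.959), Sec24d for Cdh5 (0.970) and Pdgfra for Flt1 (0.988).

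Markers of cells that neighbour or enter vessels were read beside these values, and their part in the endothelial differences was not tested. The score of 8 measured genes of pigment epithelium and melanocytes, cells of the adjoining choroid and retina, ran from -0.37 to 0.60 in high IOP and from -0.69 to 1.07 in control. It was highest on control replicate 1 and lowest on control replicate 2, arrays on which most endothelial genes were also high and low. On other arrays it differed from them. It was 0.06 on high IOP replicate 3, where the mean deviation of the endothelial genes was highest, at 0.42. On high IOP replicate 4, where all 10 endothelial genes were above their means, it was -0.37. The median log2 fold change of the pigment list was 0.03 (6 of 8 higher). The score of 14 pericyte and smooth muscle genes ran from -0.29 to 0.25 in high IOP and from -0.38 to 0.23 in control. This score was again lowest on control replicate 2. Its highest array was high IOP replicate 1, where the mean deviation of the endothelial genes was -0.22. In the pericyte list 8 of 14 genes were higher (median 0.03, with Des at 0.65, Mylk at -0.17 and Anpep at 0.27). The summed signal of 9 leukocyte genes ran from 29310 to 35740 in high IOP and from 31760 to 36500 in control (2 of 9 higher, median -0.07, with Itgam, Cd53 and Ptprc at -0.41, -0.31 and -0.16). Itgam was dim, at 13.3 ± 3.27 in high IOP and 22.9 ± 5.17 in control (SD, n = 5 each). Of 7 platelet genes 3 were higher (median -0.08, with Gp5 at -0.38), and their summed signal ran from 2141 to 3062 in high IOP and from 2355 to 2810 in control. The 3 measured red cell genes were dim, summing to between 128 and 199.6 in high IOP and between 115 and 205 in control (3 of 3 higher, median 0.12, with Hba-a1, Slc4a1 and Alas2 at 0.18, 0.12 and 0.02). Of 5 lymphatic endothelial genes 4 were higher (median 0.07), with Prox1, a defining transcription factor of lymphatics, dim at 54.9 ± 27.3 in high IOP and 78.1 ± 20.04 in control (SD, n = 5 each), Flt4 at 0.19 and Reln at 0.39. Of the neural lists, 3 of 9 astrocyte genes (median -0.04, with Aqp4, Gja1 and Aldoc at -0.30, -0.08 and -0.05), 0 of 7 myelin genes (median -0.14, with Mag, Ugt8a and Mog at -0.54, -0.46 and -0.42) and 7 of 9 photoreceptor genes (median 0.19, with Prph2, Gnat1 and Sag at 0.19, 0.83 and 0.75) were higher, as were 8 of 10 striated muscle genes (median 0.14, with Tnnc2, Myh1 and Acta1 at 0.37, 0.25 and 0.21). The striated muscle genes were dim, and all 10 summed to between 380 and 464 in high IOP and between 313 and 426 in control. The score of the myelin genes was -0.81 on high IOP replicate 1. It lay between -0.17 and 0.19 on the other high IOP arrays and between -0.16 and 0.39 in control. The pigment genes Tyr, Ttr and Lrat stood at -0.37, 0.12 and 0.13. Other probe sets of Slc4a1 (-0.06 and -0.04) and Flt4 (-0.00) had the opposite sign. Of the other Mylk probe sets the brighter stood at 0.05 and the dimmer at -0.26, and of 5 others of Gja1 a dim one stood at 0.04 and the 4 bright ones between -0.18 and -0.09.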

How the data were processed

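The authors deposited 1 table of summarised probe set intensity on a linear scale for 10 arrays. Per the labels' protocols, total RNA was amplified and biotin-labelled; how probe sets were summarised, corrected for background and scaled is not given in the sources used here, and no detection calls were used. Array medians lay between 414 and 475.

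Of 22690 probe sets, 64 controls, 691 with several gene symbols and 1555 without annotation were left out. Values were put on log2(signal + 16), which understates changes of dim genes. Where a gene had several probe sets, the brightest by mean log2 value was used. High IOP minus control was tested with limma 3.58.1 (lmFit, eBayes, R 4.3.3) and Benjamini-Hochberg adjustment over all genes. The test was checked on simulated data. Alternatives were other scalings, pseudocounts, probe set rules, filters, variance models, replicate blocks and each array left out.

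The genes, the lists and the tests were chosen with earlier results of these data known. Named genes are all 10 members, the 3 with the smallest unadjusted p of each list, and those most alike by correlation. The labels do not say whether equal replicate numbers are the same mice, so p-values measure the spread between these pools.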

Additional observations from a re-analysis of the deposited data

Results flagged for a closer look

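Vwf on control replicate 2 had a signal of 3198, against 4120 to 4355 on the other 4 control arrays. Its gap to the nearest array was 0.797 of the range of the group, above Dixon's critical value of 0.710 for 5 samples. Of 20 groups examined, 5 arrays of each condition for each of 10 genes, this was the only one, and chance marks about 1 group in 20. The same array was the lowest of the 10 for Robo4, Eng, Cldn5, Tie1 and Tek.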

How the results depend on the processing

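The count of 0 genes at a limma adjusted p under 0.05 was the same under all 24 alternatives, thresholds of 0.10 and 0.20 included, with lowest adjusted p between 0.481 and 1.00 and, apart from the thresholds, 220 to 1044 features at an unadjusted p under 0.05. The median log2 fold change of the 10 endothelial genes, 0.15, ran from 0.09 (without control replicate 2) to 0.20 (without high IOP replicate 2) with 1 array left out, and from 0.15 to 0.19 under the other alternatives; leaving out the dimmest 50% of genes left 6 of the 10. Of the 10 genes, 3 had an unadjusted p under 0.05. That number was 1, Vwf, without high IOP replicate 1 or 3 or control replicate 2 or 5, and 5, with Cldn5 and Tie1 besides, without high IOP replicate 2. Signs changed in 3 genes. With 1 array left out, Pecam1 ran from -0.431 (without high IOP replicate 3) to 0.026 (without high IOP replicate 1), Cdh5 from -0.434 to 0.181 and Kdr from -0.219 to 0.086, each over the same arrays. Kdr was also above 0 with array weights (0.055), without high IOP replicate 2 (0.026) and without control replicate 1 (0.063) or 4 (0.023). The brightest Flt1 probe set kept its sign, from -0.46 to -0.02 with 1 array left out. Both groups use replicate numbers 1 to 5. The labels do not say whether these are pairs, so the main fit treats the arrays of the 2 groups as independent, although the control eyes came from the same mice. The correlation of same-numbered arrays' deviations was -0.015, 0.277, -0.093, 0.22 and -0.078, and 2 of 5 high IOP arrays were closest to the control array of their own number. These values cannot show whether equal numbers are the same mice. With the replicate block 0 genes were called (lowest adjusted p 0.534), the median was 0.15, and 4 of the 10 genes, Vwf, Robo4, Eng and Tie1, had an unadjusted p under 0.05. No cause of any change was tested.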

Other observations

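Of 9 genes by which endothelium holds leukocytes, 3, namely Selp, Icam1 and Sele, were highest on replicate 1 of both groups, and they were chosen after their values were seen. Of the other 6, none was highest on high IOP replicate 1, while 5 (Icam2, Vcam1, Mcam, Glycam1 and Madcam1) were highest among the control arrays on replicate 1, and Cd99 on replicate 1 of neither group. Selp encodes P-selectin, which is stored with von Willebrand factor in endothelial granules and platelets. Its signal was 3035 on high IOP replicate 1 and between 251 and 500 on the other 4 high IOP arrays, against 3603 on control replicate 1 and between 177 and 279 on the other 4 control arrays. Icam1, an adhesion molecule induced in inflamed vessels, was also highest on these arrays, at 3657 on high IOP replicate 1 and 1766 to 2144 on the other high IOP arrays, against 4330 on control replicate 1 and 1506 to 1844 on the other control arrays. Sele, the gene of E-selectin, was dim on all arrays, with 60.6 on high IOP replicate 1 and 24.7 to 44.2 on the other high IOP arrays, against 141 on control replicate 1 and 24.5 to 44.9 on the other control arrays. The Vwf signal on these arrays was 5528 on high IOP replicate 1 and 4310 on control replicate 1. The labels do not say whether both arrays come from the same mice. The log2 fold changes of Selp, Icam1 and Sele between the groups were 0.48, 0.07 and -0.20, with standard errors of 0.905, 0.289 and 0.358.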
